A study of Caenorhabditis elegans with 2 samples.

Results

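The 40 genes described here encode proteins that pair, synapse and exchange homologous chromosomes in meiosis of Caenorhabditis elegans, and they were chosen by name. They are 40 of the 19973 protein-coding genes on the autosomes and X in the Ensembl annotation of WBcel235, in which every symbol was found. The measurement was chromatin immunoprecipitation and sequencing (ChIP-seq) of HIM-1, the SMC-1 subunit of the cohesin ring that holds sister chromatids together. All animals were whole young adult hermaphrodites of strain YL577, collected 47 hours after starved L1 larvae were released, and their HIM-1 carried a C-terminal GFP-FLAG tag. By the labels' description the precipitation used anti-GFP; the separate antibody entry gives him-1 instead. Whether untagged HIM-1 was also present is not given in the sources used here. There was 1 group of 2 libraries, recorded as biological replicates 1 and 2, with no second condition, so each statement below is a description and no p-value is given. The labels do not say that the replicates came from separate cultures, so the spread between them may be technical. Because whole animals were used, germ line and somatic cells could not be told apart, and no expression was measured.

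In meiosis each chromosome finds its homologue through special regions bound by zinc finger proteins and moved from the nuclear envelope. An axis of cohesin and HORMA domain proteins forms along the sister chromatids, and the central region of the synaptonemal complex then joins the homologous axes. SPO-11 cuts the DNA, the breaks are processed and repaired from the homologue, and a small part of them are designated as crossovers. In the young adult hermaphrodite gonad germ cells pass through these stages in spatial order.

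The authors' optimal list, kept at a threshold on the irreproducible discovery rate (IDR), held 2051 peaks with signals between 60.8 and 497. Their relaxed lists, which hold background as well as peaks, had 18314 entries for the pooled replicates, 22720 for replicate 1 and 24220 for replicate 2. The optimal peaks were the 2051 entries of highest signal in the pooled list. Signal is the value that the authors' peak caller gave each peak. Its scale differs between lists, so ranks within a list, with 1 as the strongest, stand beside it. Positions are 1-based on ce11, and a summit was counted for a gene where it lay within 500 bp of the gene's 5' end or 3' end, or further inside it (the body).

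Meiotic pairing, synapsis and crossover genes held optimal HIM-1-GFP summits at 14 of 40 loci (35.0%), against 11.5% of all protein-coding genes and 12.6% of autosomal ones. At the 5' end there were 8 (20.0%), against 4.47% of all protein-coding genes and 5.05% of autosomal ones. At the 3' end there were 4 (10.0%), against 6.80%, and in the body 2 (5.0%), against 1.41%. The share at 3' ends was thus the closest to that of all genes. In the 2051 strongest peaks of each replicate's own list, 16 of 40 genes had a summit in replicate 1, against 11.3% of all genes, and 12 of 40 in replicate 2, against 11.4%. At the 5' end these were 9 genes against 4.05% and 7 genes against 4.42%. The replicates averaged 35.0% ± 7.07 for any place and 20.0% ± 3.54 for the 5' end (SD, n = 2). None of the 40 genes lies on X, and their median length of 2718 bp exceeded the 2027 bp of all protein-coding genes. Genes with an optimal summit were longer in general, with a median of 2800 bp against 1954 bp without one. Among the 40, the medians were 2679 bp with and 2718 bp without a summit. The part of gene length in the shares was not tested.

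**Figure D1:**
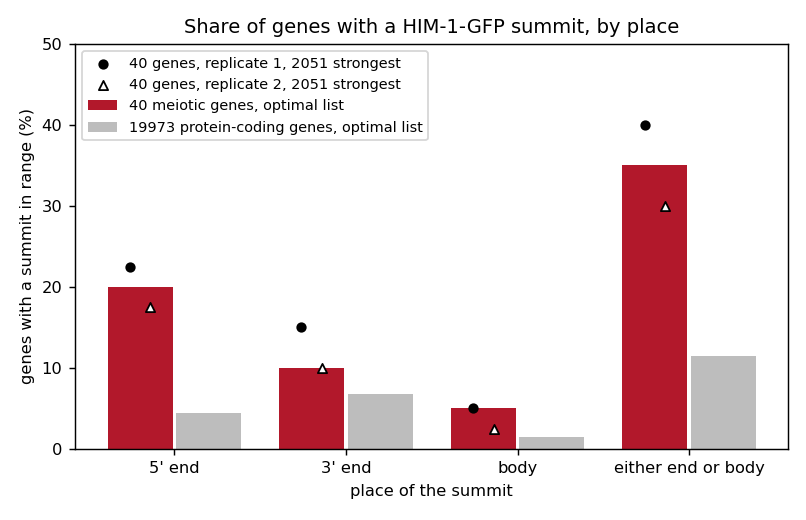
Share of genes (y axis, %) with a summit at the 5' end, at the 3' end, in the body or at any of these (x axis). Red bars are the 40 meiotic genes and grey bars all 19973 protein-coding genes in the optimal list. Circles and triangles are the 40 genes in the 2051 strongest peaks of replicates 1 and 2. Both replicates lie above the grey bar at every place, although the grey bars come from the optimal list. The body point of replicate 2 is 1 gene.

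Most signals at these genes were modest within the optimal list. The 14 signals ran from 61.5 to 248 with a median of 78.01, against a median of 83.3 over all 2051 peaks. Only 5 of the 14 genes had a summit among the 1025 strongest optimal peaks, which is 12.5% of the 40, against 5.76% of all genes. Taking more peaks from the pooled list, a setting added after seeing the data, brought in further members quickly. With 4102 peaks 23 of the 40 genes had a summit (57.5%), against 20.0% of all genes, and with 6153 peaks 29 did (72.5%), against 26.4%. In the whole relaxed list 33 did (82.5%), against 49.8% of all genes and 53.3% of autosomal ones. So 9 of the 40 genes had their highest summit below the threshold but within the 4102 strongest pooled peaks, at ranks from 2082 to 3984. Their signals ran from 60.3 at him-6 to 43.4 at syp-3, against 60.8 for the weakest optimal peak. Of all 19973 protein-coding genes, 2297 had a summit among 2051 peaks and 4000 among 4102. The 9 genes were him-6, syp-2, syp-6, zhp-1, xnd-1, dsb-1, spo-11, htp-1 and syp-3.

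**Figure D2:**
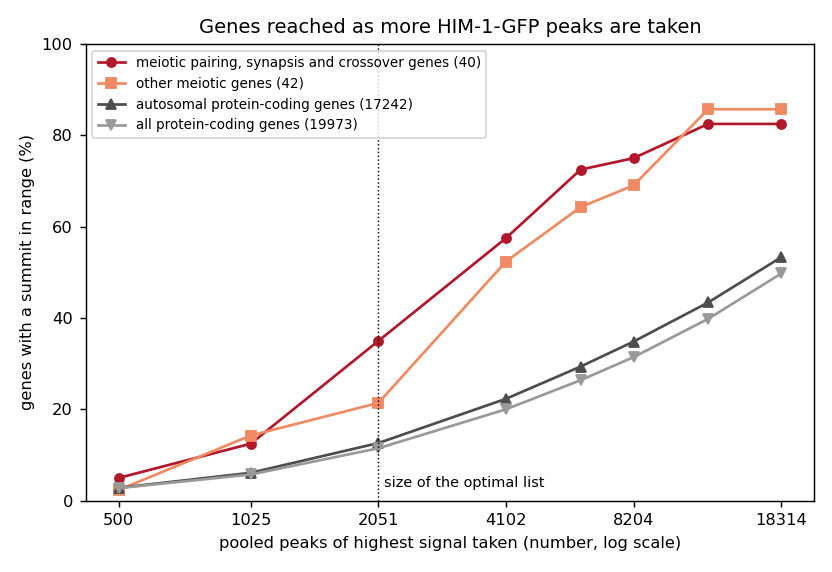
Share of genes with a summit in range (y axis, %) against the number of pooled peaks of highest signal taken (x axis, log scale), with the size of the optimal list dotted. The 40 meiotic genes rise to 57.5% at 4102 peaks, against 20.0% of all protein-coding genes.

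Of the 6 central region genes, all 6 had an entry in the pooled list, against 49.8% of all protein-coding genes, and 3 had an optimal summit, against 11.5%. SYP-1 to SYP-6 form the transverse filaments and central element that hold homologues together. The strongest summit of the 40 genes lay 217 bp upstream of syp-4 (chromosome I 6847511 to 6849923, plus strand), with signal 248 and rank 32 in the optimal list. It had signal 94.9 (rank 66) in replicate 1 and 160 (rank 19) in replicate 2. That summit fell inside the snRNA gene H27M09.6 (6847137 to 6847303) in the gap to the divergent gene H27M09.5, whose 5' end was 335 bp away. At syp-5 (chromosome I 3193528 to 3198838, minus strand) a summit of signal 83.2, rank 1028, lay 233 bp upstream of the 5' end. Its signal was 38.8 (rank 1043) in replicate 1 and 45.8 (rank 1168) in replicate 2, so both replicates placed it at nearly the same rank.

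The syp-1 summit was less repeatable. It lay within the gene (chromosome V 16404274 to 16407701), 1279 bp from the outermost 5' end and in an annotated 5' UTR, with signal 66.9 and rank 1703. Replicate 1 gave it signal 40.5 (rank 940), while in replicate 2 the nearest entry had signal 23.1 (rank 4993) and a summit 148 bp away. The 3' end of the overlapping gene F13A7.14 was 205 bp from this summit. The other three members fell below the optimal threshold: syp-2 had a pooled summit of signal 56.02 (rank 2417) 172 bp past its 3' end, syp-6 one of 55.6 (rank 2443) 192 bp upstream of its 5' end, and syp-3 one of 43.4 (rank 3984) 39 bp inside its 5' end. For syp-2 the highest summit ranked 1948 in replicate 1 and 3447 in replicate 2, which puts the gene among the 2051 strongest peaks of replicate 1 alone.

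Of the 4 axis genes, which encode HORMA domain proteins that organise chromosomes and steer synapsis and repair, 1 had an optimal summit, htp-2, against 11.5% of all protein-coding genes. It lay 427 bp past the 3' end of htp-2 (chromosome IV 6419522 to 6420898), with signal 71.9 and rank 1440. Replicate 1 gave signal 26.8 (rank 2375) and replicate 2 46.5 (rank 1131). The 5' end of the next gene, puf-11, which encodes a Puf family RNA-binding protein, was nearer, at 260 bp from the summit. The close relative htp-1 had a pooled summit of signal 45.6 (rank 3623) 126 bp past its 3' end. At htp-3 the highest pooled summit (41.1, rank 4442) lay 367 bp past the 3' end, and at him-3 (26.4, rank 11894) 203 bp past it. In the list of replicate 2 the highest htp-3 summit was at the other end of the gene, 285 bp upstream of the 5' end at rank 5013. The pooled him-3 entry had a −log10 q of 0.109, in a list that holds background.

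Among the 9 genes of pairing and its regulators, 4 had an entry in the pooled list, against 49.8% of all protein-coding genes. An optimal summit was found at 2, against 11.5%, prom-1 and sun-1, and both lay upstream of the 5' end. PROM-1 is an F-box protein that acts in meiotic entry and homologue pairing. The prom-1 summit (gene on chromosome I 9287443 to 9289770) was 193 bp upstream, with signal 76.3 and rank 1257, and had signal 28.8 (rank 2037) in replicate 1 and 47.99 (rank 1054) in replicate 2. SUN-1 spans the inner nuclear envelope and, with the outer envelope protein ZYG-12, links chromosome ends to the cytoskeleton. The sun-1 summit was 324 bp upstream of the gene, with signal 63.03 and rank 1914. In replicate 1 its signal was 39.2 (rank 1009) and in replicate 2 21.3 (rank 5933), where a stronger summit (signal 29.9, rank 2898) lay 111 bp upstream of sun-1. The 3' end of F57B1.1, on the same strand, was only 66 bp from the optimal summit at sun-1.

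The zinc finger genes of the pairing centres had almost no entries. HIM-8 binds the pairing centre of X, and ZIM-1, ZIM-2 and ZIM-3 bind those of the autosomes. The 4 genes lie side by side on chromosome IV, from 10547086 to 10563974, a stretch of 16889 bp. Within this stretch and 500 bp to each side there were 0 entries in the optimal, pooled and replicate 1 lists. Replicate 2 had 1, 293 bp upstream of zim-1, with signal 12.2 and rank 20407 of 24220. The nearest optimal summit was 53867 bp from zim-1. Because the 4 are neighbours, they amount to 1 region rather than 4 separate observations. The polo-like kinase gene plk-2 also had no entry in range in any of the 4 lists, although an optimal summit of signal 97.5 lay 677 bp from the gene. The meiotic kinase gene chk-2 had a pooled summit of signal 40.4 (rank 4621) 350 bp upstream, and zyg-12 one of 29.1 (rank 9514) 38 bp past its 3' end.

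The genes of double strand break formation all had pooled entries, 9 of 9, against 49.8% of all protein-coding genes, and 3 had an optimal summit, against 11.5%. The strongest was at him-5 (chromosome V 14090426 to 14092454), which promotes breaks especially on X. Its summit lay 92 bp past the 3' end with signal 206 and rank 67, and with signal 101.4 (rank 47) in replicate 1 and 110.3 (rank 91) in replicate 2. The summit was 26 bp from smy-3, a small RNA gene annotated as a snoRNA (14092572 to 14092651), and 246 bp from the 5' end of D1086.3. The dsb-2 summit (gene on chromosome II 14411095 to 14412218) lay 119 bp upstream, with signal 109.9 and rank 557. Its signal was 43.6 (rank 787) in replicate 1 and 63.2 (rank 565) in replicate 2. DSB-2 and its relative DSB-1 are needed for normal numbers of breaks. No small RNA gene lay within 250 bp of the dsb-2 summit.

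MRE-11 is the nuclease that acts with RAD-50 at breaks, and its gene had an optimal summit that 1 replicate's list lacked. The summit 70 bp upstream of mre-11 (chromosome V 10733925 to 10736868, minus strand) had signal 63.9 and rank 1872. Replicate 2 had it with signal 52.03 (rank 881), whereas the list of replicate 1 had no entry in range of mre-11. The summit lay 178 bp from the 5' end of the divergent gene wdr-5.3. For dsb-1 the highest pooled summit had signal 49.8 (rank 3089) 94 bp upstream, and it was among the 2051 strongest peaks in replicate 2, at rank 1870. XND-1 and HIM-17 are chromatin-associated proteins that promote break formation. The xnd-1 summit (51.9, rank 2807) lay 229 bp upstream and ranked 1805 in replicate 1, and the him-17 summit (41.6, rank 4332) lay 176 bp past the 3' end. The break-making enzyme gene spo-11 had its highest pooled summit (45.7, rank 3605) 147 bp inside the 3' end. Lower still were rad-50 (37.2, rank 5423), 681 bp inside the gene, and com-1 (34.5, rank 6440), 245 bp upstream, which encodes a partner of MRE-11 in end processing. The −log10 q of these pooled entries was 0.531 at rad-50 and 0.400 at com-1, against at least 2.21 in the optimal list.

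The bases around the summits at dsb-2, mre-11, sun-1 and him-5 show the promoter and 3' end sites read from the RefSeq sequence of WBcel235, each in the direction of its gene and centred on the summit. Capitals mark TATAAA on either strand at dsb-2 and mre-11, and the start of smy-3 at him-5; sun-1 held none of the motifs searched.
dsb-2 summit, chrII:14410926-14411026, plus strand: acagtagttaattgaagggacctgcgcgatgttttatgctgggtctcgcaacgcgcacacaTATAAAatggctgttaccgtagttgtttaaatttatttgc
mre-11 summit, chrV:10736888-10736988, minus strand: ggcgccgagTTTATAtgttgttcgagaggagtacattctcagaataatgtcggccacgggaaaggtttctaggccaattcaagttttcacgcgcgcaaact
sun-1 summit, chrV:13193812-13193912, minus strand: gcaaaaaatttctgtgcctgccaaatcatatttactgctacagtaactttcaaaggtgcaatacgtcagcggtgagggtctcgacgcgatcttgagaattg
him-5 summit, chrV:14092496-14092596, plus strand: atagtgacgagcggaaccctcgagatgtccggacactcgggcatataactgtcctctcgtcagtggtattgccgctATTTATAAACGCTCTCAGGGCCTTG
The 101 bases at him-5 end inside smy-3, with 25 of them in the small RNA gene. They also had the highest share of G and C of these sequences, 52.5%, against 41.6% at dsb-2, 47.5% at mre-11 and 43.6% at sun-1.

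Of the 5 strand exchange and repair genes, 3 had an entry in the pooled list, against 49.8% of all protein-coding genes, and 1 had an optimal summit, against 11.5%. BRD-1 is the worm partner of BRC-1, the orthologue of human BRCA1. The brd-1 summit lay in an intron (gene on chromosome III 6885207 to 6889504, minus strand), 1713 bp inside the 5' end, with signal 79.7 and rank 1146. It had signal 42.07 (rank 861) in replicate 1 and 39.3 (rank 1615) in replicate 2. It fell inside the tRNA-Lys gene K04C2.t3 (6887728 to 6887800), so the peak is at a tRNA gene within brd-1 rather than at an end of brd-1. The BLM helicase gene him-6 came next to the threshold, with a pooled summit of signal 60.3, rank 2082, 403 bp past its 3' end, at rank 1292 in replicate 1 and 2850 in replicate 2. The scaffold gene him-18 had a pooled summit of signal 29.4 (rank 9276), 495 bp past its 3' end. The recombinase gene rad-51 and brc-1 had no pooled entry in range; rad-51 had its highest entry in replicate 1 at rank 14599 and brc-1 in replicate 2 at rank 22216.

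The bases at the brd-1 summit are shown because they place the peak in the tRNA gene. They run in the direction of brd-1, and the 60 capitals are those of K04C2.t3.
brd-1 summit, chrIII:6887741-6887841, minus strand: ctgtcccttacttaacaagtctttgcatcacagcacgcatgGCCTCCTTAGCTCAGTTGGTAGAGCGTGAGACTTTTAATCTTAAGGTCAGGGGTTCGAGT
The tRNA gene is on the same strand as brd-1, and the summit lay within its first bases.

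All 7 crossover designation genes had pooled entries, against 49.8% of all protein-coding genes, and 4 had an optimal summit, against 11.5%. The closest gene to the summit was another one for 3 of these 4 (zhp-3, him-14 and cosa-1). Of all 2297 genes with an optimal summit, 1580 kept one when each summit counted for its closest gene alone. MSH-5 and HIM-14, the MSH4 orthologue, form the complex that stabilises crossover intermediates. The msh-5 summit lay 195 bp past the 3' end (gene on chromosome IV 13155233 to 13164054), with signal 101.2 and rank 667, and it had no other gene in range. Replicate 1 gave signal 44.2 (rank 765) and replicate 2 53.5 (rank 832). The him-14 summit was 123 bp upstream of the gene (chromosome II 7065020 to 7069966, minus strand), with signal 64.6 and rank 1830. Its ranks were 1521 in replicate 1 (signal 32.7) and 2652 in replicate 2 (signal 31.3), so replicate 2 left it outside its 2051 strongest peaks. The 3' end of kars-1, the lysyl-tRNA synthetase gene on the same strand, was 94 bp from this summit, nearer than him-14 itself.

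The sequences at msh-5 and him-14 are shown because both held TTCGCGC on 1 strand, which capitals mark, together with TATAAA and TTTTTTTT, where present on either strand.
msh-5 summit, chrIV:13164199-13164299, plus strand: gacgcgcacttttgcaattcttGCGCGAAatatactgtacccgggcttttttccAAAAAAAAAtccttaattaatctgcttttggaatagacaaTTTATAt
him-14 summit, chrII:7070039-7070139, minus strand: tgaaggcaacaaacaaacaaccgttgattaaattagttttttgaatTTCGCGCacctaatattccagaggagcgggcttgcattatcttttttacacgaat
TTCGCGC lay within 100 bp of 3 of the 14 summits (at him-14, msh-5 and syp-5), which is 21.4%, against 4.44% of all 2051 optimal summits. In promoters, taken as 250 bases before to 50 after the 5' end, it occurred at 4 of the 40 genes (chk-2, dsb-1, him-14 and syp-5; 10.0%), against 1.92% of all protein-coding genes. The genes him-14 and syp-5 are in both counts, so the counts are not separate observations. Both are counts of a few genes, and no test was made.

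The RING finger genes of this role and cosa-1 completed it. ZHP-3 moves along the synaptonemal complex and marks crossover sites with COSA-1, a cyclin-like protein. The zhp-3 summit lay 284 bp upstream (gene on chromosome I 8529376 to 8531342, minus strand), with signal 101.4 and rank 662, and with signal 41.9 (rank 871) in replicate 1 and 59.5 (rank 660) in replicate 2. The 3' end of gpa-15 was only 58 bp from it. The cosa-1 summit (gene on chromosome III 2726116 to 2731670) was the weakest of the 14, with signal 61.5 and rank 2014. It lay 138 bp past the 3' end, in introns of the genes cox-6B and Y71H2AM.12, and Y71H2AM.12 was the closest gene. Replicate 2 had it with signal 39.3 (rank 1620), whereas replicate 1 had no entry within 200 bp of it; replicate 1's own highest summit at cosa-1 was 299 bp upstream of the 5' end, at rank 1567. Below the threshold, zhp-1 had a pooled summit of signal 53.0 (rank 2702) 34 bp inside its 5' end, zhp-2 one of 40.5 (rank 4574) 387 bp upstream, and zhp-4 one of 35.7 (rank 5945) 144 bp past its 3' end.

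**Figure D3:**
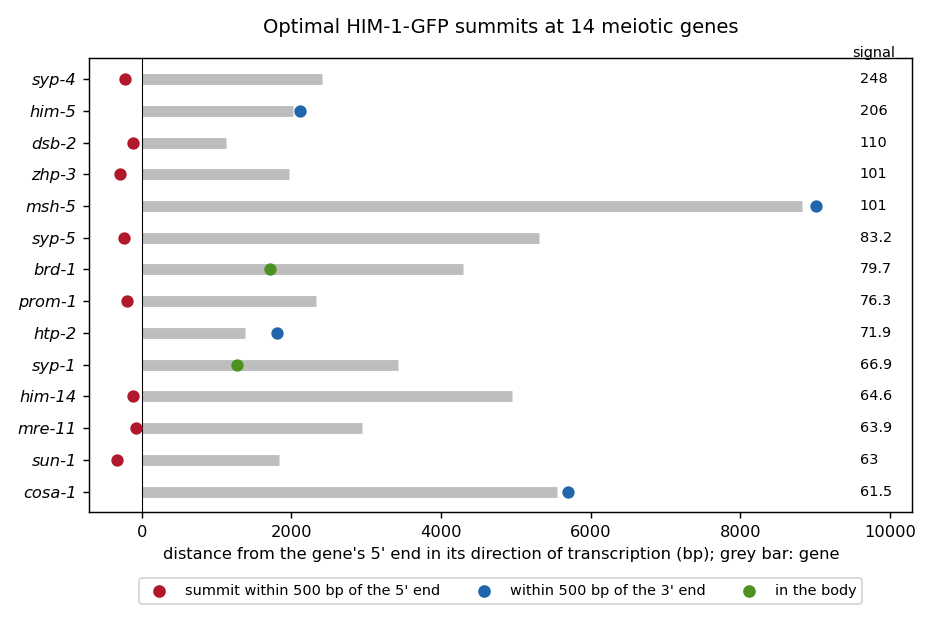
The 14 optimal summits (points) drawn on their genes (grey bars), as distance from the 5' end in bp along the direction of transcription (x axis), with genes ordered by signal, printed at the right. The 8 summits at 5' ends all lie upstream and the 4 at 3' ends all lie past the gene.

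The side of the summits was uniform at these genes. All 8 summits at 5' ends lay upstream, between 70 and 324 bp from the end, against 80.1% upstream of 923 gene and summit pairs over all protein-coding genes. All 4 at 3' ends lay downstream, between 92 and 427 bp, against 75.8% of 1493 pairs. Neighbouring genes shared many of these sites: 6 of the 8 at 5' ends were in range of another protein-coding gene, against 73.2% of all pairs. In 4 of the 8 (dsb-2, him-14, sun-1 and zhp-3) the summit also lay within 500 bp of the 3' end of a gene on the same strand, as in 34.7% of all pairs. The gaps between those genes were 252 bp at dsb-2, 216 bp at him-14, 389 bp at sun-1 and 341 bp at zhp-3. At htp-2, cosa-1, him-14, sun-1 and zhp-3 the neighbour was closer to the summit, and 9 of the 40 genes keep an optimal summit when each summit counts for its closest gene alone, against 7.91% of all genes. The summits at syp-4, him-5 and brd-1 lay within 250 bp of a small RNA gene. The other 11 of the 14 did not, as was so for 1470 of all 2051 optimal summits. Without the summits near small RNA genes 11 of 40 genes (27.5%) had one, against 9.57% of all genes.

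The replicates shared 8 of the 14 summits among their own 2051 strongest peaks, within 200 bp (57.1%), against 66.8% of all optimal summits. These were at brd-1, dsb-2, him-5, msh-5, prom-1, syp-4, syp-5 and zhp-3. Of the other six, those at htp-2 and mre-11 were in range of the gene in replicate 2's strongest peaks alone, and those at syp-1, him-14 and sun-1 in replicate 1's alone. At cosa-1 each replicate had a summit in range among its strongest peaks, but at different places. Replicate 1 added him-6, htp-1, syp-2 and xnd-1, and replicate 2 added dsb-1.

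Among genes without an optimal summit, the highest summit in range was compared between the replicates' own lists, where it may lie at another end of the gene. The helicase gene him-6 had signal 35.04 (rank 1292) in replicate 1 and 30.15 (rank 2850) in replicate 2, and htp-1 had 34.56 (rank 1340) in replicate 1 and 22.76 (rank 5143) in replicate 2. For dsb-1 the signal was 24.2 (rank 2956) in replicate 1 and 37.13 (rank 1870) in replicate 2, and for xnd-1 30.43 (rank 1805) in replicate 1 and 27.02 (rank 3580) in replicate 2. These genes were therefore among the 2051 strongest peaks of 1 replicate alone. The central region gene syp-6 had 19.09 (rank 5156) in replicate 1 and 31.42 (rank 2621) in replicate 2, and syp-3 had 19.57 (rank 4865) in replicate 1 and 26.4 (rank 3756) in replicate 2. For zhp-1 the signal was 23.84 (rank 3048) in replicate 1 and 34.01 (rank 2267) in replicate 2, and for spo-11 28.03 (rank 2169) in replicate 1 and 24.65 (rank 4356) in replicate 2. None of these 4 entered the strongest peaks of either replicate, though all had entries in both. At the low end, zhp-2 had 12.31 (rank 15136) in replicate 1 and 28.35 (rank 3228) in replicate 2, and him-3 had 13.4 (rank 12419) in replicate 1 and 22.1 (rank 5494) in replicate 2. For both, replicate 2 gave the higher rank.

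**Figure D4:**
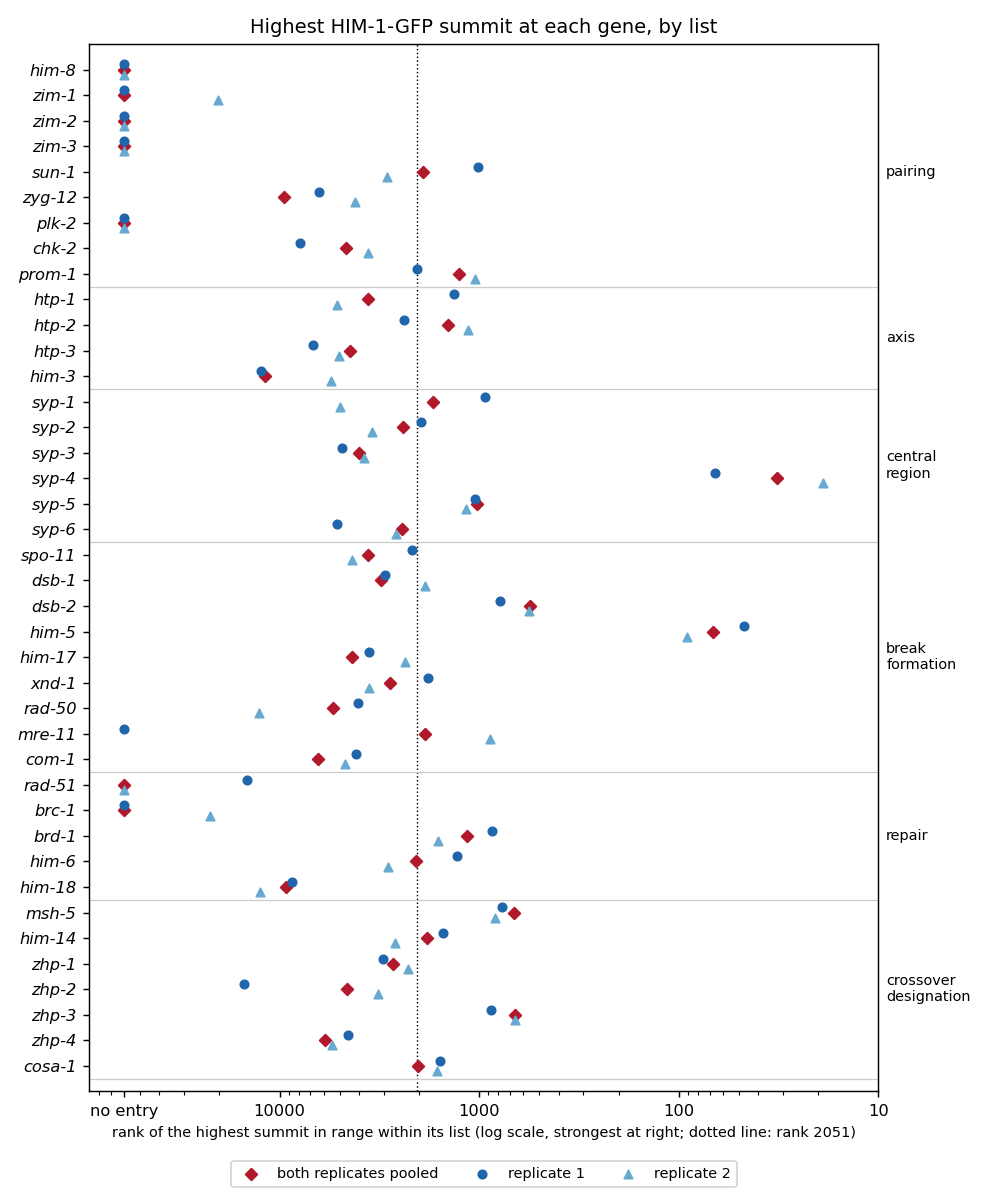
Rank of the highest summit in range of each of the 40 genes (rows, grouped by role) within the pooled list and the lists of replicates 1 and 2 (x axis, log scale, strongest at right, with genes without an entry at left and rank 2051 dotted). The points of syp-4 and him-5 lie farthest right, at ranks 19 to 91, and him-8, zim-2, zim-3 and plk-2 have no entry in any list.

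By chromosome, 4 of 10 genes on I had an optimal summit, against 18.6% of all protein-coding genes there. The counts were 2 of 3 on II against 11.5%, 2 of 6 on III against 19.9%, 2 of 12 on IV against 11.8% and 4 of 9 on V against 6.69%. Chromosome IV holds the cluster of 4 zinc finger genes without a peak.

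The sequence around the 14 summits had a median of 36.3% G and C within 100 bp, against 38.3% for all optimal summits, with values from 28.9% to 54.7%. Apart from TTCGCGC, 4 motifs were searched on both strands, within 100 bp of the summits and in promoters. A GC box lay at 1 of the 14 summits (prom-1), against 11.99% of all optimal summits, and in 4 of the 40 promoters (10.0%), against 11.7% of all promoters. GAGAGA lay at 1 summit (mre-11), against 14.8%, and in 4 promoters, against 21.8%. TATAAA lay at 4 summits (dsb-2, him-5, mre-11 and msh-5), against 18.04%, and in 16 promoters, against 37.9%. A run of TTTTTTTT lay at 5 summits (brd-1, dsb-2, msh-5, prom-1 and syp-1), against 20.9%, and in 16 promoters, against 32.5%. The GC box was searched as CCGCCC and as CCCGCC. The counts of GAGAGA and the GC box at these summits were thus no higher than the shares of all summits.

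Of a list of 42 other meiotic and repair genes, 9 had an optimal summit (21.4%), against 11.5% of all protein-coding genes. There were 3 at the 5' end (7.14%), against 4.47%, and 7 at the 3' end (16.7%), against 6.80%, with atm-1 having one at each end. In the body there were 0, against 1.41%. At 5' ends they were atm-1 (signal 73.8), hal-3 (69.7) and exo-1 (62.5), which encode a checkpoint kinase, a regulator of synapsis and an exonuclease. At 3' ends the highest were mlh-1 (120.6), a mismatch repair gene, atm-1 (110.2), dna-2 (108.7) and cku-70 (102.2), followed by pph-4.1 (85.4), rmh-1 (84.2) and atl-1 (68.8). Another gene was closer to the summits at dna-2 (F43G6.16), pph-4.1 (zip-1), hal-3 (dnj-20) and the 5' end of atm-1 (F56C11.3). Replicate 2 had no entry within 200 bp of the cku-70 summit. With 4102 pooled peaks 22 of the 42 had a summit (52.4%), against 20.0% of all genes. At 3' ends the shares were 10.0% of the 40 genes described above and 16.7% of these 42, against 6.80% of all protein-coding genes. The difference between the 40 and the 42 genes was not tested.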

How the data were processed

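HIM-1-GFP ChIP-seq peak lists on ce11 were used for 2 biological replicates of 1 group. Per the labels and the deposited file descriptions, the authors called peaks relative to a control, separately by replicate and on pooled alignments, and kept an optimal list at an IDR threshold. Aligner, peak caller and versions: not given in the sources used here. The deposited signal of each peak is the authors' caller's value, and a q-value was deposited as −log10. Read depth is unknown. Lists on ce10 were not used. Chromosome lengths of the RefSeq WBcel235 sequence were checked against the ce11 peaks, and 0 ran past an end. Genes came from Ensembl release 115.

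A summit is the peak's start plus its summit offset. It counted for every gene it reached within 500 bp of an end, or in the body. Small RNA genes (tRNA, rRNA, snRNA including spliced leader RNA, snoRNA and miRNA) were noted within 250 bp, and a summit recurred where replicates had one within 200 bp. Small RNA genes and closer neighbours were noted for optimal summits only. Every member was named. The members, lists and alternatives were chosen with earlier results of these data known. Python 3.11.15, pandas 2.3.3 and NumPy 2.4.6 were used, and the search was tested on planted summits.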

Additional observations from a re-analysis of the deposited data

How the results depend on the processing

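Leaving out a replicate meant using the other replicate's own 2051 strongest peaks. At any place this gave 16 genes in replicate 1, against 11.3% of all genes, and 12 in replicate 2, against 11.4%. At the 5' end it gave 9 against 4.05% and 7 against 4.42%. At the 3' end it gave 6 (15.0%) against 6.96% and 4 (10.0%) against 6.60%. In the body it gave 2 (5.0%) against 1.45% and 1 (2.5%) against 1.52%. With the stronger 1025 optimal peaks 5 genes had a summit at any place (12.5%), against 5.76% of all genes. At the 5' end there were 3 (7.5%) against 1.91%, at the 3' end 2 (5.0%) against 3.29%, and in the body 0 against 0.921%. The lower counts follow by construction from fewer peaks. Counting each summit for its closest gene alone gave 9 genes at any place (22.5%), against 7.911% of all genes. At the 5' end it gave 5 (12.5%) against 3.004%, and at the 3' end 2 (5.0%) against 4.091%. The main counts at these places were more than 1.5 times as high. Without summits near small RNA genes the count in the body was 1 (2.5%), against 0.506% of all genes. Numbers of pooled peaks added after seeing the data gave 2 genes at 500 (5.0%, against 2.77% of all genes), 23 at 4102 (against 20.0%), 29 at 6153 (against 26.4%), 30 at 8204 (against 31.4%), 33 at 12306 (against 39.8%) and 33 at 18314 (against 49.8%). Windows of 250 and 1000 bp gave 11 (27.5%) and 15 genes (37.5%) at any place, against 8.67% and 13.3% of all genes. The strongest pooled peaks are the optimal list itself, and counting every annotated transcript end leaves the outer span of each gene unchanged. At any place both therefore gave 14 by construction, against 11.5%. At the 5' end, every annotated transcript end gave 9 genes (22.5%), against 4.79% of all genes. At the 3' end it gave 4 (10.0%), against 6.86%. The counts with other windows and with every transcript end stayed within 1.5 times the main counts. So did the recurring summits, with 8 within 100 bp and 9 within 500 bp. There were 12 when each whole relaxed list, background included, was searched. The share of all optimal summits that recurred was counted for the main setting only. No paired analysis was possible because there is 1 group. Signal cannot be read as occupancy without depth, and the relaxed lists hold background.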
